A study of Mus musculus with 4 samples.

Results

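The genes described here are 10 cytokines, decoy receptors and cytokine receptors made by connective tissue cells: Il6, Il11, Lif, Csf1, Il33, Tslp, Il1rl1, Tnfrsf11b, Osmr and Il6st. They were chosen by name as a set of IL-6 family and stromal cytokine genes, with earlier results of these data known. Each matched 1 row among the 51826 genes of the deposited count table. All 10 were protein coding and had a mean count of at least 10 over the libraries, as did 16734 genes in all. Their exons did not overlap those of any other annotated gene on either strand.

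RNA was sequenced from cultured mouse dermal papilla cells (DPCs), which come from the mesenchymal core of the hair bulb, and dermal sheath cells (DSCs), which come from the connective tissue layer around the follicle. Both were grown from whisker follicles of C57BL/6J mice that carried an EGFP transgene and were 5 to 6 weeks old, are labelled WT for genotype and were expanded in DMEM with serum. Low passage means passage 3 (P3) and high passage means passage 9 (P9), and the study asked how serial passage altered cells that were to be transplanted. Each of the 4 groups (DPCs at P3 and at P9, DSCs at P3 and at P9) was 1 library with no added agent named in the labels, so no difference has a replicate check.

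IL-6 family cytokines signal through receptor complexes that share gp130, the protein encoded by Il6st. Binding brings together gp130 and a partner chain such as the LIF receptor or the oncostatin M receptor, which activates JAK kinases and STAT3, and STAT3 in turn induces its own inhibitor Socs3. IL-33 and TSLP are alarm cytokines released at barrier tissues, and their receptors are carried mainly by immune cells. Fibroblasts also make CSF1, which keeps macrophages alive, and osteoprotegerin, the product of Tnfrsf11b, which is a soluble decoy for the cytokine RANKL.

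Total counts lay between 34981284 and 47604059 per library. The high-passage DPC library stood apart from the low-passage ones. Across the 16734 genes its Spearman's rho was 0.929 with low-passage DPCs and 0.925 with low-passage DSCs. Low-passage and high-passage DSCs reached 0.969. With high-passage DSCs, the low-passage and high-passage DPC libraries each had a rho of 0.952. Every DPC passage value below rests on the high-passage DPC library, and no DPC passage value remains without it. The fibroblast genes Col1a1, Col1a2, Pdgfrb and Vim were abundant in each library, and 5 of 9 keratinocyte markers (among them Krt5, Krt14 and Cdh1), 4 of 5 pigment cell markers (among them Tyr and Dct) and 4 of 6 mast cell markers (among them Cpa3 and Fcer1a) were at 0 in every library. Of the other keratinocyte markers, Dsp had 10 counts at P3 and 184 at P9 in DPCs and 84 and 2307 in DSCs, which took the sum of that list from 2.34 to 6.44 CPM (counts scaled to library size) in DPCs and from 4.01 to 52.7 CPM in DSCs. The sum of 5 endothelial markers went from 0.924 to 0.112 CPM and from 2.64 to 0.395 CPM, and that of 4 Schwann cell markers from 7.31 to 3.65 CPM and from 13.7 to 5.09 CPM. Of 9 markers tied to the papilla, Sox2 was higher in the DPC than in the DSC libraries, while Ncam1 was lower (3642 and 1673 counts in DPCs at P3 and P9 against 11755 and 15584 in DSCs). The sum of the list was 272 and 186 CPM in DPCs against 461 and 413 CPM in DSCs. Ncam1 had the most counts of the list in both DSC libraries, and the study also used NCAM as a sheath cell marker. The sum therefore does not rank the cell types. Alpl had 23 counts or fewer in every library and Lef1 had 508 counts in low-passage DPCs and 2 in high-passage DPCs. Lower counts of such a gene can mean fewer cells of a type or less RNA per cell, which cannot be told apart in these bulk libraries. The 5 markers tied to the sheath summed to 9431 CPM at P3 and 3492 at P9 in DPCs, against 7477 and 6514 in DSCs. The sheath list therefore did not set low-passage DSCs above low-passage DPCs. Of these 5, 4 had a passage change below 0 in DPCs and 2 in DSCs, while Itga8 went from 6837 to 34714 counts in DPCs. The summed level of 9 fibroblast markers was 18830 CPM at P3 and 7464 at P9 in DPCs, against 27650 and 24640 in the DSC libraries. Of these 9 markers, 7 had a passage change below 0 in DPCs, 3 of them by at least 4-fold, against 4.36% of all genes. In DSCs 4 were below 0 and 2 were at least 4-fold higher, against 2.67% of all genes. These 2 were Dcn (3292 counts at P3 and 89544 at P9) and Lum (0 and 109). The part of these marker differences in the cytokine results was not tested.

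The promoters of the 3 IL-6 family ligands are printed because they carried the same 7 letters. Windows of 250 bases before an annotated start were read from RefSeq on GRCm38.p6, which gave 11 windows for 8 of the 10 genes. Each was searched on both strands for 7 motifs. The AP-1 letters TGANTCA, which read the same on both strands, were found in Il6 (chr5:30012864-30013113, plus strand), in 1 of the 2 Il11 windows (chr7:4778142-4778391, minus strand) and in Lif (chr11:4257318-4257567, plus strand), and in no window of the other genes. They occur in 6.75% of all 32851 promoter windows. The NF-kB letters (3 G, any 2 bases, 3 T and 2 C, or the reverse complement) were found in Il6, as GGGATTTTCC, and in Csf1, as GGAAAGTCCC, against 1.41% of all windows, and the matches in different motifs did not overlap in the sequences shown. Capitals mark AP-1 and NF-kB matches.
Il6: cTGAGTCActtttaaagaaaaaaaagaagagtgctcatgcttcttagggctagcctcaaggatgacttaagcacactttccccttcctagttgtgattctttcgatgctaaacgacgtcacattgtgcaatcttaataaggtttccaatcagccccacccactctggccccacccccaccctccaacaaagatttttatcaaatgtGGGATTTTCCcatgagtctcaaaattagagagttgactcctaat
Il11: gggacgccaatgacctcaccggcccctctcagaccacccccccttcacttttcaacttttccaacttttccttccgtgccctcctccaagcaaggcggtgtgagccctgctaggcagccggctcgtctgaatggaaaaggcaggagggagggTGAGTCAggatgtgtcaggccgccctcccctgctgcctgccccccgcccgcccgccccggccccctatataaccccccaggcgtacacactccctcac
Lif: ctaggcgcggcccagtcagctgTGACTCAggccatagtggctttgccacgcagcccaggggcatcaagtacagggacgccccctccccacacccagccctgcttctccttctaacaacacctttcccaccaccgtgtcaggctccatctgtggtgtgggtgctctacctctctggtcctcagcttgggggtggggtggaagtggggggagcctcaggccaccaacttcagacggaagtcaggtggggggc
Counted from the start, the AP-1 letters of Il6 began at base -249 and its NF-kB letters at base -44. The AP-1 letters began at base -98 in Il11 and at base -228 in Lif. The STAT letters TTCNNNGAA, present in 7.02% of all windows, were in none of the 11, and the same held for the CRE letters TGACGTCA (1.55%) and the E-box CACGTG (6.02%). The C/EBP letters TTGCNNNAA (8.29% of all windows) were in 1 window each of Il1rl1 and Il33, and TATAAA (12.4%) was in both Il33 windows. A match of letters is a description of the sequence and not evidence of binding.

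The 10 genes spanned a wide range of levels. Levels of different genes were compared in FPKM, the deposited values that account for transcript length. Il1rl1, Csf1 and Tnfrsf11b made up 85.6% to 91.2% of the summed FPKM of the 10 genes in the 4 libraries. Il6st and Osmr followed in every library, and the 5 ligands Lif, Il6, Il11, Tslp and Il33 were each at 5.32 FPKM or less.

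The order at the top changed with group. Il1rl1 led in low-passage DPCs at 155 FPKM, ahead of Csf1 at 130 and Tnfrsf11b at 73.4. Tnfrsf11b led in high-passage DPCs at 428 FPKM, ahead of Il1rl1 at 298 and Csf1 at 243. Osteoprotegerin RNA was thus the third of the 10 in DPCs at P3 and the first at P9. In low-passage DSCs Csf1 led at 375 FPKM, with Il1rl1 at 157 and Tnfrsf11b at 120. High-passage DSCs had Il1rl1 at 308 FPKM and Csf1 at 299, with Tnfrsf11b at 124. The 95% counting intervals of neighbours in these orders did not overlap, whereas those of most neighbouring low ligands did. Counting intervals cover sampling of reads only.

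**Figure D1:**
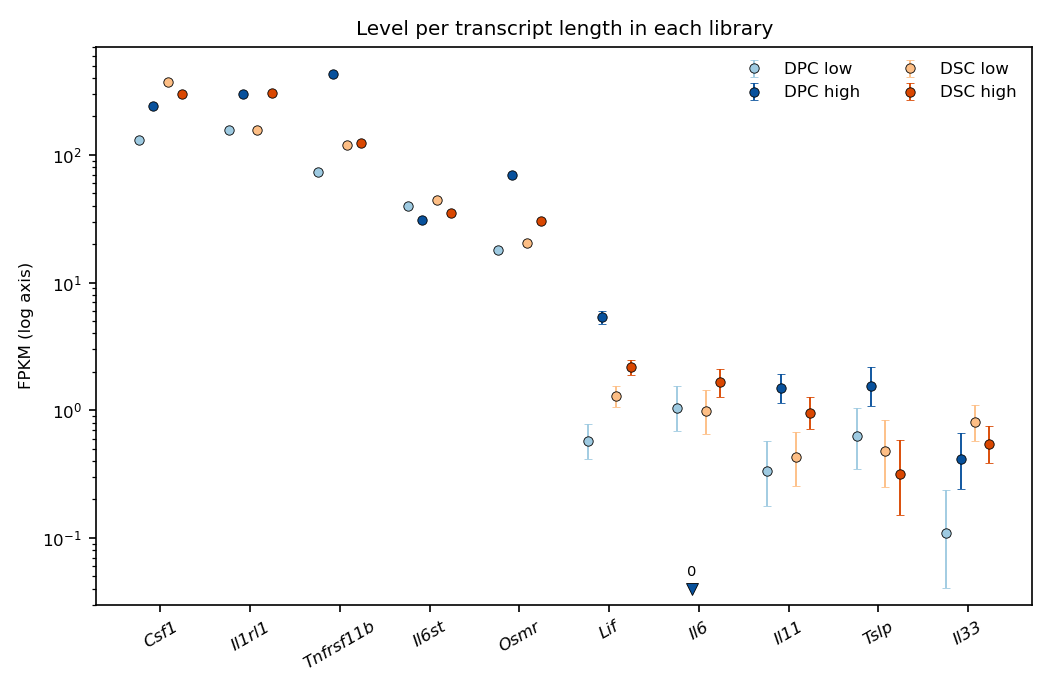
FPKM of the 10 genes (log axis) in the 4 libraries, ordered by mean level, with bars for the 95% counting interval of a single library. Csf1, Il1rl1 and Tnfrsf11b lie above 70 FPKM in every library, and Lif, Il6, Il11, Tslp and Il33 lie at 5.32 FPKM or below. The triangle marks the count of 0 for Il6 in high-passage DPCs.

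In DPCs the question was which of the 10 genes differed between P3 and P9. Fold changes are differences of log2 CPM after TMM scaling, written as passage 9 over passage 3, and a change of at least 4-fold (2 on the log2 scale), the threshold the study used, is termed a call. Tnfrsf11b, Lif and Il11 were called higher and Il6 was called lower. Calls higher thus covered 3 of the 10 genes, against 5.58% of all 16734 genes, and calls lower 1 of 10, against 4.36%. The median change of the 10 was 1.32, against 0.03 for all genes, and 8 of 10 values were above 0, against 51.5% of all genes. Such comparisons with all genes are descriptions only, because the 10 genes were chosen with earlier results of these data known. The 95% counting interval excluded 0 for all 10, as it did for 69.0% of all genes at this depth.

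In DSCs none of the 10 was called, against 2.67% of all genes called higher and 1.16% called lower. Their median change was 0.33, against 0.00 for all genes, and 6 of 10 were above 0, against 50.2%. The counting interval excluded 0 for 8 of the 10, against 55.7% of all genes. A call in the same direction in both cell types was made for none of the 10 and for 1.78% of all genes. The change in DPCs and that in DSCs were at least 4-fold apart for Il6, Lif and Tnfrsf11b, which is 3 of 10 against 7.48% of all genes. With 1 library per group this difference has no test.

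**Figure D2:**
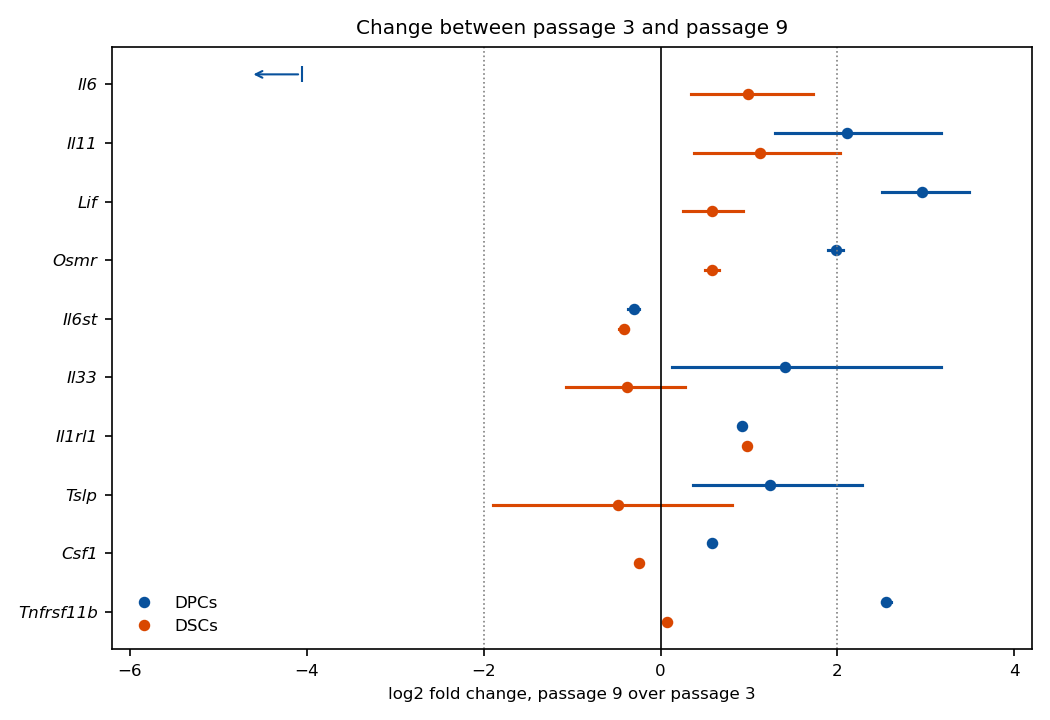
Log2 fold change of each gene between passage 3 and passage 9, DPCs in blue and DSCs in orange, with lines for the 95% counting interval on halved counts and dotted lines at 4-fold. Lif and Tnfrsf11b lie above 2 in DPCs and under 1 in DSCs, and the arrow marks the bound for Il6 in DPCs.

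Among the ligands, Il6 (ENSMUSG00000025746, chromosome 5, 30013114 to 30019981) had the widest spread. Gene positions are those of the deposited table, and for 8 of the 10 genes they are identical to GENCODE M21 on GRCm38, while the ends of Il11 and Tslp differ by 2 bases. IL-6 is the founding member of the family and a secreted factor of inflamed or senescent stroma. Its raw count was 51 at P3 and 0 at P9 in DPCs and 53 and 129 in DSCs. The passages were thus on opposite sides in the 2 cell types, and the only library without a read of Il6 was that of high-passage DPCs. A count of 0 allows up to 3 counts, or 0.0836 CPM in that library. With the 51 counts at P3 taken as exact, Il6 in DPCs was then at least 16.6-fold lower at P9. If both mates of each read pair were counted, as an excess of even counts would give, the floor is 6 counts and the bound is 8.29-fold. With counting error in both libraries, the upper 95% limit of the change was -2.65 on halved counts. In DSCs Il6 stood 0.99 higher at high passage (95% counting interval 0.35 to 1.73). This and the following intervals were computed on halved counts, to allow for both mates, and compare 2 libraries rather than 2 conditions.

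Il11 (ENSMUSG00000004371, chromosome 7, 4772373 to 4782857) encodes a gp130 ligand that fibroblasts make in response to TGF-beta. Its counts were 26 at P3 and 115 at P9 in DPCs and 37 and 100 in DSCs. Both high-passage libraries were above both low-passage ones. The change was 2.10 (1.30 to 3.17) in DPCs and 1.13 (0.37 to 2.02) in DSCs. The DPC interval reaches below the 4-fold threshold, so that call is not firm at this depth, and with a prior count of 10 the DPC value was 1.85 and did not pass.

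Lif (ENSMUSG00000034394, chromosome 11, 4257557 to 4272514) encodes leukaemia inhibitory factor, which signals through gp130 and the LIF receptor. It had 82 counts at P3 and 631 at P9 in DPCs and 226 and 408 in DSCs. Low-passage DPCs were the lowest library and high-passage DPCs the highest. The change was 2.95 (2.51 to 3.49) in DPCs, an interval wholly above the threshold, and 0.58 (0.25 to 0.93) in DSCs.

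The receptor chains of the family differed from each other. Osmr (ENSMUSG00000022146, chromosome 15, 6813577 to 6874969) encodes the oncostatin M receptor chain. Its level was 80.8 CPM at P3 and 318 at P9 in DPCs and 101 and 152 in DSCs. High-passage DPCs were above all other libraries. The change was 1.98 (1.90 to 2.06) in DPCs, which lies at the 4-fold threshold without passing it, and 0.58 (0.50 to 0.67) in DSCs. With a minimum mean count of 100 the DPC value was 2.01 and passed.

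Il6st (ENSMUSG00000021756, chromosome 13, 112464070 to 112510086), the gene of gp130, varied least of the 10. It measured 262 CPM at P3 and 212 at P9 in DPCs and 354 and 265 in DSCs. The high-passage library was the lower one in each cell type, with a change of -0.30 (-0.36 to -0.24) in DPCs and of -0.41 (-0.46 to -0.36) in DSCs. The FPKM ratio of Osmr to Il6st was 0.450 at P3 and 2.27 at P9 in DPCs and 0.457 and 0.864 in DSCs. Only in the high-passage DPC library was Osmr the more abundant of the pair per transcript length.

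**Figure D3:**
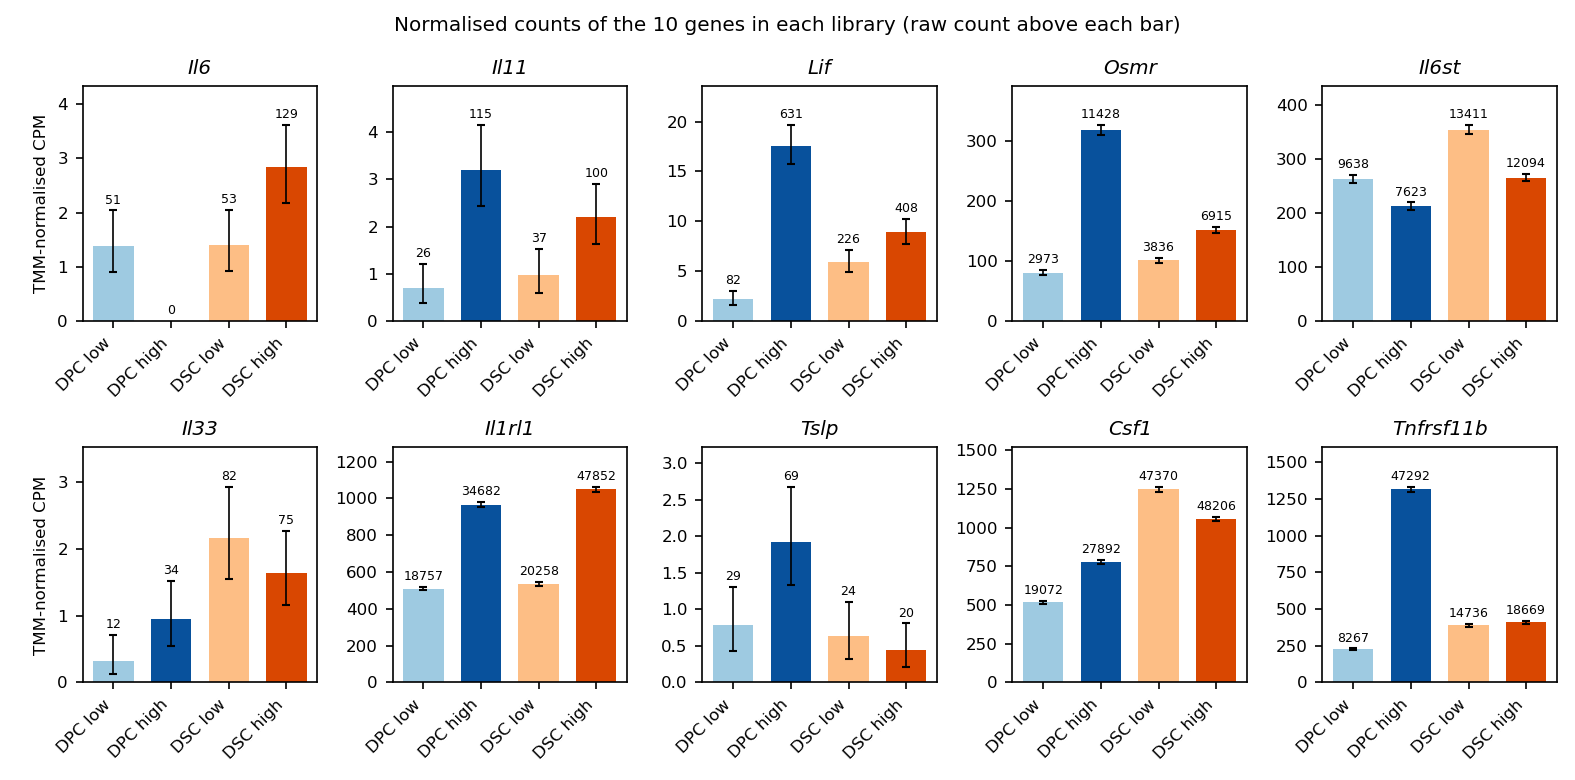
TMM-normalised CPM of each gene in the 4 libraries (bars, each panel with its own axis from 0), with the 95% counting interval on halved counts and the raw count printed above. High-passage DPCs are the highest library for Il11, Lif, Osmr, Tslp and Tnfrsf11b, and Il6 has a count of 0 there.

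The alarm cytokines were scarce, while the IL-33 receptor genes were abundant. Il33 (ENSMUSG00000024810, chromosome 19, 29925114 to 29960718), whose product is held in the nucleus until cells are damaged, had 12 counts at P3 and 34 at P9 in DPCs and 82 and 75 in DSCs. Both DPC libraries were below both DSC libraries. The passage change was 1.40 (0.13 to 3.17) in DPCs and -0.38 (-1.07 to 0.28) in DSCs, and the latter was within counting error.

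Tslp (ENSMUSG00000024379, chromosome 18, 32815383 to 32819799) encodes an epithelial and stromal cytokine that acts on dendritic cells and lymphocytes. Counts of 29 at P3 and 69 at P9 in DPCs and 24 and 20 in DSCs were obtained. High-passage DPCs had the highest level, and the other 3 libraries lay close to each other. Tslp stood 1.23 higher at high passage in DPCs (0.36 to 2.28), and in DSCs the change of -0.48 (-1.90 to 0.81) was within counting error.

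Il1rl1 (ENSMUSG00000026069, chromosome 1, 40429570 to 40465415) encodes ST2, the IL-33 receptor, which is made as a membrane receptor and as a soluble decoy from different starts and ends of the gene. Its level was 510 CPM at P3 and 966 at P9 in DPCs and 534 and 1050 in DSCs. Its passage change was nearly alike at 0.92 (0.89 to 0.96) in the DPC and 0.97 (0.94 to 1.01) in the DSC libraries, and the cell types were close to each other at either passage. Counts per gene cannot separate the soluble from the membrane form. Il1rap, the coreceptor that the membrane form needs, had a change of -0.39 and -0.08, and the FPKM ratio of Il1rl1 to Il1rap was 7.93 at P3 and 19.3 at P9 in DPCs and 8.28 and 16.5 in DSCs.

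Csf1 (ENSMUSG00000014599, chromosome 3, 107741048 to 107760469), the macrophage colony-stimulating factor, measured 518 CPM at P3 and 777 at P9 in DPCs and 1249 and 1058 in DSCs. Both DSC libraries were above both DPC libraries. The passage changes had opposite signs, 0.58 (0.55 to 0.62) in DPCs and -0.24 (-0.27 to -0.21) in DSCs. The deposited FPKM, with 0.1 added, gave 0.90 and -0.33, the same signs but outside these intervals.

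Tnfrsf11b (ENSMUSG00000063727, chromosome 15, 54250619 to 54278484) encodes osteoprotegerin. Levels of 225 CPM at P3 and 1318 at P9 in DPCs and 389 and 410 in DSCs were measured. High-passage DPCs stood far above the other 3 libraries. Its change was 2.55 (2.50 to 2.60) in DPCs and 0.08 (0.03 to 0.12) in DSCs.

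The next comparison set DPCs against DSCs at each passage. At low passage 9 of the 10 genes were lower in DPCs, against 49.8% of all genes, with a median difference (DPCs over DSCs) of -0.44 against 0.00 for all genes. The call lower was made for 1 of them, Il33, against 2.77% of all genes, and the call higher for none, against 1.52%. Il33 differed by -2.55 (-4.26 to -1.49), Lif by -1.40 (-1.97 to -0.89), Csf1 by -1.27 (-1.30 to -1.23) and Tnfrsf11b by -0.79 (-0.85 to -0.74). For Csf1 the deposited FPKM, with 0.1 added, gave -1.53, outside its interval. Il6 differed by -0.01 (-0.86 to 0.83), Il11 by -0.44 (-1.61 to 0.64) and Tslp by 0.29 (-0.89 to 1.55), all within counting error. The counting interval excluded 0 for the other 7 genes, against 46.9% of all genes. With scaling to total counts the values of Il6 (0.08) and Il1rl1 (0.02) were above 0, so the count of 9 depends on the scaling.

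At high passage 5 genes were higher and 5 lower in DPCs, against 49.1% of all genes higher. Tslp was called higher, against 2.50% of all genes, and Il6 lower, against 3.91%. Il6 was at least 33.9-fold lower in DPCs, or 16.9-fold with a floor of 6 counts. The Tslp difference of 2.01 (1.08 to 3.31) barely passed the threshold and its interval reaches well below it. Tnfrsf11b at 1.69 (1.65 to 1.72), Osmr at 1.07 (1.01 to 1.13) and Lif at 0.97 (0.72 to 1.24) were higher in DPCs, after having been lower there at low passage. Csf1 remained lower in DPCs, at -0.44 (-0.47 to -0.41), or -0.295 from FPKM with 0.1 added. Il33 at -0.76 (-1.72 to 0.07) and Il11 at 0.54 (-0.03 to 1.12) were within counting error. The counting interval excluded 0 for the other 8 genes, against 61.1% of all genes.

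**Figure D4:**
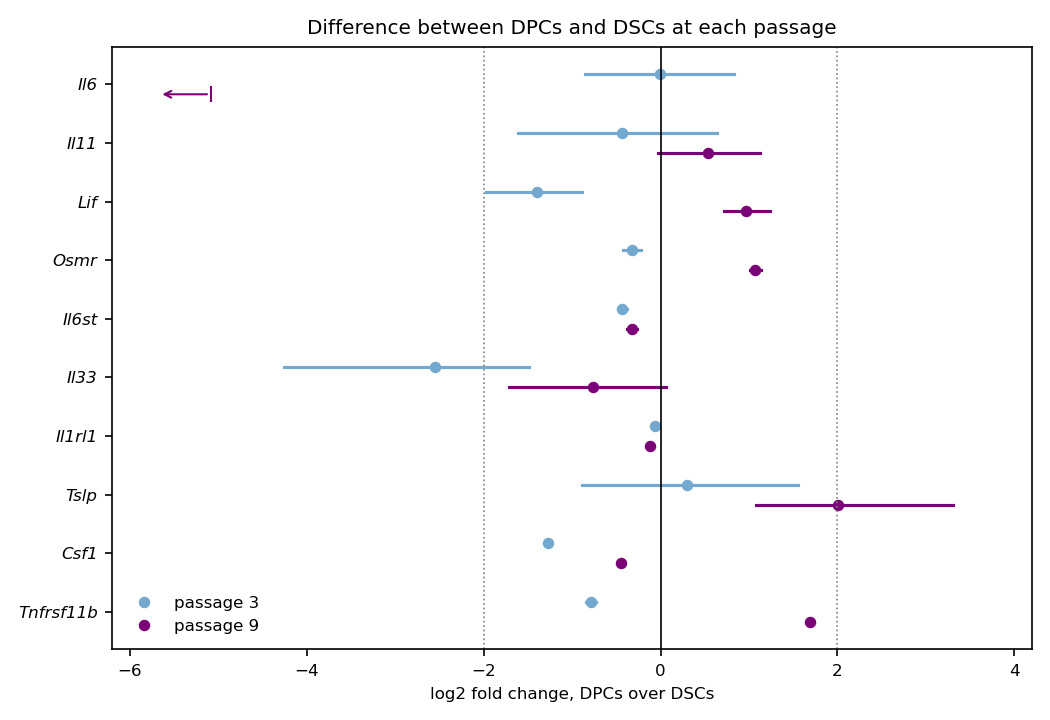
Log2 fold change of DPCs over DSCs at passage 3 (light blue) and passage 9 (purple), with lines for the 95% counting interval on halved counts and dotted lines at 4-fold. Lif, Osmr and Tnfrsf11b lie below 0 at passage 3 and above 0 at passage 9, and the arrow marks the bound for Il6 at passage 9.

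An additive model of cell type and passage asked for a passage effect shared by DPCs and DSCs. The model leaves 1 residual degree of freedom, which measures the unlike response of the cell types and no spread between cultures. The edgeR quasi-likelihood test called none of the 16734 genes at an adjusted p under 0.05 and 2822 genes (16.9%) at an unadjusted p under 0.05, among them Il1rl1, Osmr, Il11 and Lif. Their effects were 0.95, 1.28, 1.67 and 1.77, with edgeR adjusted p-values of 0.249, 0.250, 0.266 and 0.295, and each was higher at high passage in both cell types. Tnfrsf11b had an edgeR adjusted p of 0.382, and Il6, whose changes had opposite signs, one of 0.710. DESeq2, fitted to the same model, called 955 genes (5.71%, with 974 genes given no adjusted p), and these included Il1rl1 (adjusted p = 0.0200) and Osmr (adjusted p = 0.0277).

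The partners of the 10 genes were described from 9 pathway lists with 96 genes, of which 81 were tested. Outside the 10 genes, 3 of 71 were called higher and 2 lower with passage in DPCs, and 1 higher and none lower in DSCs. The shares over all genes were 5.58% and 4.36% in DPCs and 2.67% and 1.16% in DSCs. The medians of these 71 were 0.14 in DPCs and 0.08 in DSCs. Of 6 IL-6 family ligands tested, 3 were called higher in DPCs and 1 lower, and all but Ctf1 of these belong to the 10 genes, so the count is no separate evidence. Ctf1, which encodes the gp130 ligand cardiotrophin 1, had 43 counts at P3 and 209 at P9 in DPCs and 88 and 254 in DSCs. Its change was 2.27 in DPCs and 1.25 in DSCs. Osm, the ligand of Osmr, had 4 counts in DPCs at P3 and none in the other 3 libraries.

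Of 7 IL-6 family receptor genes tested, Lifr was the 1 called higher in DPCs, and none was called in DSCs. Lifr had 293 counts at P3 and 1840 at P9 in DPCs and 273 and 202 in DSCs. High-passage DPCs alone were high. The change was 2.68 for DPCs and -0.69 for DSCs, with a difference between DPCs and DSCs of 3.52 at high passage. The deposited FPKM of Lifr gave 0.959, 5.40, 0.848 and 1.16 in the same order, and so the opposite direction to the counts in DSCs. The receptor chains specific to IL-6 and IL-11 had small changes, of 0.33 for DPCs and 0.29 for DSCs (Il6ra) and of -0.22 and -0.09 (Il11ra1).

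Signal transducers showed no call among 10 JAK and STAT genes in either cell type. Jak1, a kinase bound to gp130, had a change of -0.89 for DPCs and -0.43 for DSCs. Stat3 had values of 0.23 and 0.16. None of 12 STAT3-responsive genes was called, and their median was 0.11 in DPCs and 0.60 in DSCs. Socs3, the feedback inhibitor of gp130 signalling, had 796 counts at P3 and 1272 at P9 in DPCs and 338 and 1200 in DSCs. Low-passage DSCs had the lowest level, and the change was 0.71 in DPCs and 1.56 in DSCs. The 13 NF-kB genes and 6 genes of cytokine mRNA decay held no call either, with medians in DPCs of 0.31 and 0.38.

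In the list of IL-1 and IL-7 family genes, Il15 was the 1 gene of all 81 called with passage in both cell types. It encodes a cytokine of lymphocyte survival and had 0 counts at P3 and 33 at P9 in DPCs and 11 and 91 in DSCs. With the 33 counts taken as exact, Il15 was at least 11.3-fold higher at high passage in DPCs, or 5.64-fold with a floor of 6 counts. In DSCs it was 2.59 higher on the log2 scale. Il7, a lymphocyte growth factor, went from 97 to 14 counts in DPCs, a change of -2.61, and from 220 to 139 counts in DSCs, a change of -0.92. Il7r, which encodes a chain shared by the IL-7 and TSLP receptors, had 14 counts at P3 and 0 at P9 in DPCs and 20 and 15 in DSCs. With the 14 counts taken as exact, Il7r was lower in DPCs at P9 by at least 4.55-fold. With a floor of 6 counts the bound was 2.28-fold, which is under the 4-fold threshold. The other TSLP receptor chain, Crlf2, had a change of -0.13 for DPCs and -0.26 for DSCs.

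Receptors and rival ligands of the growth factors were low beside Csf1 and Tnfrsf11b. Csf1r, the CSF1 receptor of macrophages, had 328 counts at P3 and 156 at P9 in DPCs and 570 and 223 in DSCs. Its change was -1.03 and -1.61. Of 9 leukocyte markers tested, 7 had a change below 0 in DPCs (4 of them called lower, against 4.36% of all genes) and 8 in DSCs (1 called lower, against 1.16%), where 51.5% and 50.2% of all genes were above 0. Cd14 went the other way, with 207 counts at P3 and 750 at P9 in DPCs and 268 and 550 in DSCs. The sum over the list of 10 was 123 CPM at P3 and 83.0 at P9 in DPCs and 171 and 105 in DSCs. Cd3e was at 0 in every library, and the part of such cells in the Csf1r, Il7r and cytokine values was not tested. Il34, the other ligand of the CSF1 receptor, had 455 counts at P3 and 116 at P9 in DPCs and 375 and 524 in DSCs. The FPKM ratio of Csf1 to Il34 was 15.8 at P3 and 82.1 at P9 in DPCs and 56.7 and 32.7 in DSCs. RANKL, the target of osteoprotegerin, is encoded by Tnfsf11, which had 6, 0, 0 and 2 counts in these libraries. Tnfrsf11a, the gene of the RANKL receptor, had 30 and 64 counts in DPCs and 28 and 79 in DSCs at low and high passage, a change of 1.08 and 1.18.

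**Figure D5:**
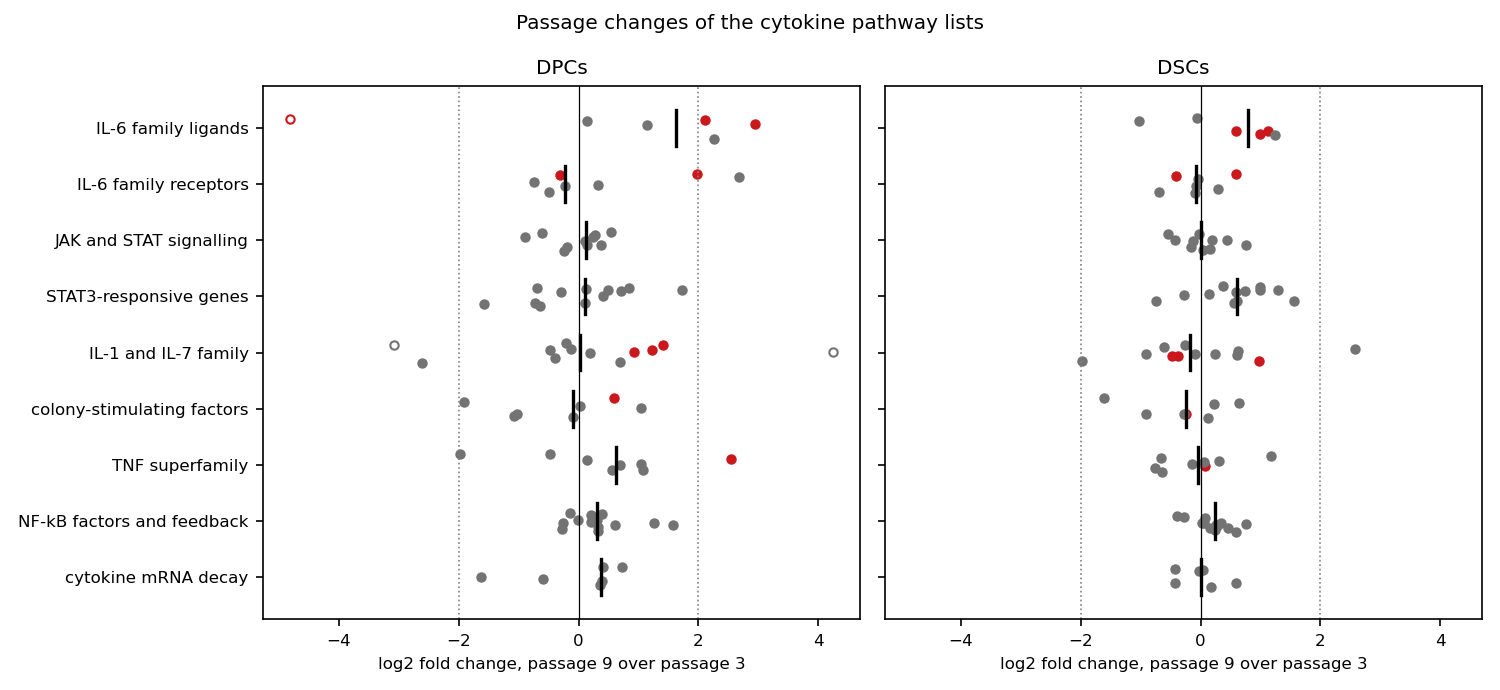
Log2 fold change with passage of each tested gene in the 9 pathway lists, in DPCs (left) and DSCs (right). Red points are among the 10 genes, grey points are their partners, open points have a count of 0 at 1 passage and a fitted value that is no bound, black bars are list medians and dotted lines mark 4-fold. The IL-6 family ligands have the highest median in both panels (1.62 and 0.79).

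The genes whose 4 values were most like those of Il6 and Lif, the genes with the largest range over the libraries, were found by Euclidean distance between centred log2 CPM among 12192 genes with a mean count of at least 100. With a prior count of 2, nearest to Il6 was Has2, which encodes a hyaluronan synthase, at a distance of 0.80, with 247 counts at P3 and 14 at P9 in DPCs and 363 and 566 in DSCs. Gm26712 and AC147560.1 followed at 0.97 and 1.03, with 3 counts and 1 count in high-passage DPCs and 153 or more in every other library. The order depends on the value given to the 0 count of Il6. Has2 was the gene of rank 12 with a prior count of 0.5, where AC147560.1 was nearest, and of rank 15 with a prior count of 10, where Cdh10 was nearest, so no gene can be named as most like Il6. Nearest to Lif, in this order at all 3 prior counts, were Casc4, Epb41l4b and Pygo1 at distances of 0.19, 0.23 and 0.35. Casc4 had 1102 counts at P3 and 7055 at P9 in DPCs and 2899 and 4806 in DSCs. With 4 libraries, many genes can share such a pattern.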

How the data were processed

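The study's methods describe paired-end Illumina sequencing of poly-A RNA, while the labels name another library kit. The authors deposited raw counts per gene and, for each library, FPKM values scaled by them for transcript length and depth. The submitters' processing notes name Bowtie 0.12.2 with mm8 and mm9, but 94.1% of the 51633 IDs found in GENCODE M21 (GRCm38) had identical positions. The counting program and its use of strand are not given in the sources used here.

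Counts were scaled with TMM in edgeR 4.0.16 (R 4.3.3). Genes with a mean count of at least 10 were tested, and log2 CPM used a prior count of 2. Counting intervals are exact Clopper-Pearson 95% intervals of a library's share of the counts of 2 libraries, on halved counts because even counts were in excess (1339 genes with 2 counts against 583 with 3 in DPCs at P3). Intervals for a single FPKM or CPM value are exact Poisson intervals on halved counts. An additive model was tested by quasi-likelihood in edgeR, adjusted by Benjamini-Hochberg over all tested genes, with DESeq2 1.42.0 as the alternative, and the calling step was tested on simulated data. A count of 0 allows 3 counts, or 0.0658 to 0.0836 CPM per library. Fold bounds set from this floor take the count of the other library as exact.

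The 10 genes and the pathway, marker and motif lists were chosen with earlier results of these data known. Named genes were the 10, their listed binding partners and signal transducers, genes called in both cell types, at most 2 rises and 2 falls per list called in 1 cell type, and the 3 nearest patterns of the 2 genes with the largest range. Other scalings, prior counts, minimum counts, FPKM, halved counts and a 2-fold threshold were tried.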

Additional observations from a re-analysis of the deposited data

Results flagged for a closer look

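The passage changes of DPCs and DSCs had intervals on opposite sides of 0 for Il6 and for Csf1. For Il6, 3 counts were put in place of the 0 in high-passage DPCs. The change in DPCs minus that in DSCs was then -5.069 on the log2 scale. It was -4.069 with 6 counts, the floor for counting of both mates. These are bounds that take the other counts as exact, and not estimates. For Csf1 the changes of 0.58 in DPCs and -0.24 in DSCs differed by 0.8245, and those from FPKM with 0.1 added differed by 1.233. With 1 library per group the differences themselves were not tested.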

How the results depend on the processing

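Counts of calls among the 10 genes kept within 1.5 times the main count in 87 of 107 values under the alternatives, which include values for the additive model. The 3 genes higher with passage in DPCs were not always the same: Il11 lost its call with a prior count of 10, FPKM + 0.1 or FPKM + 1, and with a minimum mean count of 100 Osmr passed and Il11 was not measured. Tslp, the call higher in DPCs at high passage, gave a count of 0 with a prior count of 10, no minimum count, a minimum mean count of 100, FPKM + 0.1, FPKM + 1 or halved counts. With FPKM + 1 the counts lower in DPCs with passage, lower in DPCs at low passage and lower in DPCs at high passage were each 0, and 1 gene, Tnfrsf11b, had passage changes at least 4-fold apart. A minimum mean count of 100 left 6 of the 10 genes, without Il6, Il33, Il11 and Tslp, and the same 3 counts were 0. At a 2-fold threshold 6 genes were higher with passage in DPCs, 1 in DSCs (Il11), 3 were lower in DPCs at low passage, 3 higher in DPCs at high passage, and 6 had changes at least 2-fold apart. DESeq2 called 955 genes and 2 of the 10 for passage. Of 480 single-gene values, 406 stayed within their counting interval and 74 moved beyond it. No called value changed sign, and 7 values of 3 results changed sign, where the main value was at most 0.11 in size. These results were DPCs over DSCs at low passage for Il6 and Il1rl1, and the difference of the passage changes for Il6st. Over the settings, the DPC change of Il11 ranged from 0.90 to 2.16, that of Lif from 2.01 to 3.01 and that of Tnfrsf11b from 2.52 to 2.58. The fitted DPC change of Il6, which is no bound, ranged from -6.77 to -1.04, and Il33 at low passage from -2.68 to -0.70. Of 180 list counts, 166 stayed within 1.5 times and 14 moved. The rank of Has2 among the genes nearest to Il6, 1 at a prior count of 2, was 12 at 0.5 and 15 at 10, an alternative chosen after seeing the data. Scalings moved the median of all genes by less than 0.1. No paired analysis was possible because the labels carry no replicate numbers and each group is 1 library, and for the same reason leaving out a library gives no value. Depth limits the calls on Il6, Il11, Il33 and Tslp, which had 129 counts or fewer in every library.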
